A study of Mus musculus with 12 samples.

Results

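Transcripts of 5 transcription factors that define T helper cell lineages (Rora, Maf, Foxp3, Gata3, and Tbx21) were followed across Th0, Th17, and iTreg cells. They were taken by symbol, not by their measured values, and make up 5 of the 11247 genes listed in at least 1 of the 2 deposited RNA-seq tables. All 5 are listed in both tables. The 12 libraries fall into 3 groups of 4 samples. Naive CD4+CD62L+ T cells from spleens of C57BL/6 mice aged 8 to 10 weeks were activated with anti-CD3 and anti-CD28, both at 1 µg/ml, in every group. Th0 cells received nothing else, Th17 cells also received 30 ng/ml IL6, 5 ng/ml TGFβ1, and 10 µg/ml each of neutralizing anti-IL4 and anti-IFNγ, and iTreg cells also received 10 ng/ml IL2 and TGFβ1. The labels give 10 ng/ml TGFβ1 for iTreg cells, while the study's methods give a higher concentration. RNA was collected after 72 h, so each library is a bulk culture in an early stage of polarization, and fewer cells that express a gene cannot be told apart from less RNA of it per cell.

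Each lineage of CD4+ T cells is steered by a small set of transcription factors that cytokine signals switch on after activation. Tbx21 encodes T-bet, which drives Th1 cells, and Gata3 encodes the zinc finger factor that drives Th2 cells and is also needed in other T cells. Foxp3 encodes the forkhead factor that defines regulatory T cells, and TGFβ induces it in activated T cells, while IL6 opposes this induction. Rora encodes the nuclear receptor RORα, which takes part in Th17 differentiation, and Maf encodes the leucine zipper factor c-Maf, which acts in several lineages and regulates cytokine genes such as Il10 and Il21.

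The genes lie on separate chromosomes of the mouse genome build GRCm38 (mm10). Rora (ENSMUSG00000032238.17) spans positions 68653786 to 69388246 on the plus strand of chromosome 9, and Maf (ENSMUSG00000055435.6) positions 115682942 to 115707794 on the minus strand of chromosome 8. Foxp3 (ENSMUSG00000039521.13) spans positions 7573644 to 7595245 on the plus strand of chromosome X. Gata3 (ENSMUSG00000015619.10) spans positions 9857078 to 9890034 on the minus strand of chromosome 2, and Tbx21 (ENSMUSG00000001444.2) positions 97098071 to 97115331 on the minus strand of chromosome 11. Reads had been counted over exons without strand in the union mode of HTSeq, in which a read that overlaps exons of more than 1 gene is assigned to none, and this touches Foxp3 most. Of its 4577 exonic bases in the GENCODE annotation, 1443 (31.5%) also lie in exons of other genes, of which Ccdc22 and Ppp1r3f, both on the opposite strand, are listed in the tables, compared to 5.83% for Gata3, 5.34% for Maf, 0.627% for Rora, and 0 for Tbx21.

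RefSeq start site windows, which run from 250 bases before a start site to 50 bases after it, were available for 4 of the members, with a pair of start sites for Foxp3 and none for Maf. Those of Rora, Foxp3, and Gata3 are shown, because Rora and Foxp3 both rose in iTreg cells while Gata3 fell in Th17 cells. They are written 5′ to 3′ on the strand of the gene (build GRCm38.p6). Capitals mark matches, on either strand, to 7 motifs of the factor families discussed here. The STAT motif was searched as TTCNNNGAA and the SMAD motif as GTCTAGAC. The motif of ROR proteins and other nuclear receptors was searched as AGGTCA, that of forkhead factors as TGTTTAC, that of GATA factors as AGATAA, that of T-box factors as AGGTGTGA, and that of MAF factors as TGCTGA.
Rora, chr9:68653536-68653835, plus strand: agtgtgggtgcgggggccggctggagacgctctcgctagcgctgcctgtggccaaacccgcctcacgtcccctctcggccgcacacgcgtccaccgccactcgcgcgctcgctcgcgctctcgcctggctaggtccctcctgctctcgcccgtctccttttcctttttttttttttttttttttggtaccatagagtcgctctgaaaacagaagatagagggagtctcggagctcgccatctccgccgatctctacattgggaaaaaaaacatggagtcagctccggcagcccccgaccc
Foxp3, chrX:7579426-7579725, plus strand: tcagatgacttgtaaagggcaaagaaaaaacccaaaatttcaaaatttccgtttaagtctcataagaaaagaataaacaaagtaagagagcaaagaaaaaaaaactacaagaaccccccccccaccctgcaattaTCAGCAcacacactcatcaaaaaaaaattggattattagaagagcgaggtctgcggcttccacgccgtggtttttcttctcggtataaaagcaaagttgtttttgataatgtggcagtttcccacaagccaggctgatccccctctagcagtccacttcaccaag
Foxp3, chrX:7580233-7580532, plus strand: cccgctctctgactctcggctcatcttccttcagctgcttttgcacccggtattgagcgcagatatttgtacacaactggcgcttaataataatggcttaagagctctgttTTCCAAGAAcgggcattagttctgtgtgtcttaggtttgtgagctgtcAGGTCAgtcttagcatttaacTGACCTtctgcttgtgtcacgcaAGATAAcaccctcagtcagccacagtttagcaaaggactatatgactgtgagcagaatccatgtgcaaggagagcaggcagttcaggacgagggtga
Gata3, chr2:9878551-9878850, minus strand: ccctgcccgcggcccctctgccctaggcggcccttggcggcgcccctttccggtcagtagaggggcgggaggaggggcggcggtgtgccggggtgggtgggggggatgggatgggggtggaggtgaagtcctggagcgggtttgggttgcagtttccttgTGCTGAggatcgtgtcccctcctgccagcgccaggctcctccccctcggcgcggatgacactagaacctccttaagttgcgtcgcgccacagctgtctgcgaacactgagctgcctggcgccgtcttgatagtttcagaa
The window of Rora held no match to any of the 7 motifs, and neither did that of Tbx21. The upstream Foxp3 window held a MAF match that begins at position -115, counted with the start site as 0. The downstream window held a STAT match at -139, ROR matches at -91 and -70, and a GATA match at -47, and the Gata3 window held a MAF match at -90. Of all 32851 RefSeq windows of this length, 19.5% held the MAF motif, 16.3% the ROR motif, 11.2% the GATA motif, 8.30% the STAT motif, 3.65% the forkhead motif, 1.28% the T-box motif, and 0.213% the SMAD motif. These matches describe the letters only, and binding was not measured.

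Values are given as FPKM, by definition the fragments per kilobase of exon scaled to the mapped fragments of a library. How the deposited FPKM were scaled is not stated. The gene lengths used are not stated, so levels of different genes, unlike those of a gene in different libraries, can be compared only roughly. The low FPKM lie on steps of whole fragments, which allowed the fragments behind 98.7% of the genes in the Th17 table and 98.6% in the iTreg table to be recovered. Those genes hold 5467469 to 7944821 fragments per library. Th0 values come from the Th17 table, and those in the iTreg table were 0.988 to 0.991 of them. Libraries are named by their column headings, in which the ending gives the group. The beginnings (M22, M29, M42, and M43) recur in each group, and neither labels nor methods tie them to the 4 experiments that the sample titles name, each with all 3 groups. Libraries with the same beginning deviated together from their group means (r = 0.45 to 0.78 across genes), so a fit with the beginning as a replicate block was added after the data were seen, and it is given where it changed a call. All 9 CD4+ T cell markers examined were listed, with a summed level of 1220 to 2596 FPKM per library. None of the NK and erythroid markers was listed, and of the B cell, CD8 T cell, and myeloid markers only Cd79a, Cd8b1, Cd68, and, in the Th17 table, Itgam were. The summed level of Cd68 and Itgam was 3.34 to 5.03 FPKM in Th0 and 5.58 to 16.5 FPKM in Th17 libraries, and the part of such cells in the results was not tested. A Th17 library, M43_5, stood apart in Foxp3 on the FPKM scale but not on the log2(FPKM + 1) scale, as described below. Calls on members and list genes that change without it are named below, and Foxp3 is described with and without it. List medians, rankings of likeness, and fits with the replicate block use all libraries.

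Across the 3 groups, Rora and Maf rose in both Th17 and iTreg cells compared to Th0 cells, Foxp3 rose in iTreg cells, and Gata3 fell in Th17 cells and, with the replicate block, in iTreg cells, while Tbx21 did not pass the test in Th17 cells and was too low to be tested in iTreg cells. In Th17 cells, 3 of the 5 members tested were DE (2 higher, 1 lower), where 19.3% of all genes tested were DE (10.6% higher and 8.69% lower). In iTreg cells, 3 of the 4 members tested were DE, all of them higher, where the share of all genes was 16.6% (8.36% higher and 8.21% lower). With the replicate block, the same 3 members were DE in Th17 cells, where 37.8% of all genes were (19.2% higher and 18.6% lower), and all 4 tested in iTreg cells, where 40.9% were (20.9% higher and 20.0% lower). Differences in log2(FPKM + 1) were tested with limma at an FDR of 0.05 (Benjamini-Hochberg), for every gene that exceeded 1 FPKM in 4 or more of the 8 libraries of a table. A gene at 1 FPKM or less throughout 1 group was tested only through the other group, so its direction was set in advance. Because of the added 1, low levels yield smaller fold changes on this scale than in FPKM.

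**Figure D1:**
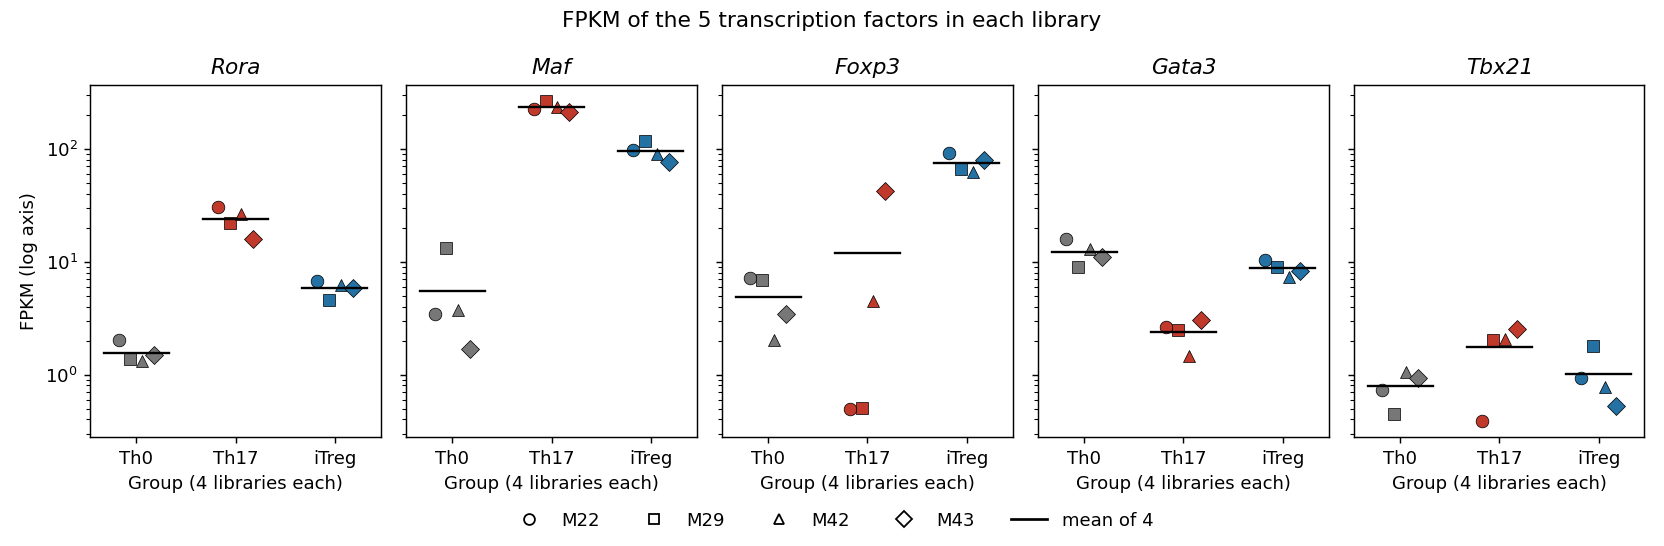
FPKM (log axis) of each member in the 4 libraries of each group. Each point is a library, its shape gives the beginning of the column heading, and black lines are group means. Maf was at 213 FPKM or more in every Th17 library, and the Th17 values of Foxp3 ran from 0.499 to 42.5 FPKM.

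Rora, the nuclear receptor gene, was low in Th0 cells, with 2.02, 1.37, 1.31, and 1.49 FPKM in libraries M22_1, M29_1, M42_1, and M43_1. In Th17 cells it had 30.5 FPKM in M22_5, 22.2 in M29_5, 26.4 in M42_5, and 15.9 in M43_5. In iTreg cells it had 6.73 FPKM in M22_4, 4.57 in M29_4, 6.18 in M42_4, and 5.89 in M43_4. The 3 groups did not overlap, with iTreg libraries between Th0 and Th17 libraries. Mean Rora was 15.4 times the Th0 mean in Th17 cells and 3.82 times in iTreg cells. The log2 fold change was 3.25 ± 0.19 (SE, adjusted p = 1.5e-05) in Th17 cells and 1.43 ± 0.13 (adjusted p = 0.00023) in iTreg cells, and the difference from Th0 libraries exceeded the spread between libraries in both. Exact permutation of the 8 libraries gave p = 0.029 (two-sided) in both comparisons, the smallest that 70 arrangements allow. Groups that do not overlap were found for 23.8% of all genes tested in the Th17 table and for 22.8% in the iTreg table.

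Maf, the c-Maf gene, had the highest FPKM of the members in all 4 Th17 libraries and in 3 of 4 iTreg libraries. Its Th0 values were 3.45, 13.2, 3.74, and 1.68 FPKM in M22_1, M29_1, M42_1, and M43_1, so M29_1 lay well above the other Th0 libraries. Th17 libraries held 226, 266, 233, and 213 FPKM in the order M22_5, M29_5, M42_5, and M43_5, and iTreg libraries 97.8, 117, 89.6, and 77.3 FPKM in the order M22_4, M29_4, M42_4, and M43_4. Libraries whose headings begin with M29 were the highest of their group in all 3 groups. The groups did not overlap, and the mean was 42.5 times that of Th0 cells in Th17 cells and 17.5 times in iTreg cells. The log2 fold change was 5.46 ± 0.43 (SE, adjusted p = 7.0e-05) in Th17 cells and 4.18 ± 0.44 (adjusted p = 0.00041) in iTreg cells. The exact permutation test gave p = 0.029 in both.

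Foxp3, the forkhead factor of regulatory T cells, had 7.24, 6.91, 2.04, and 3.41 FPKM in the Th0 libraries M22_1, M29_1, M42_1, and M43_1. In iTreg cells it had 91.7 FPKM in M22_4, 66.6 in M29_4, 62.0 in M42_4, and 80.5 in M43_4, all above every Th0 library. Its mean was 15.5 times the Th0 mean and its log2 fold change 3.81 ± 0.32 (SE, adjusted p = 0.00013, exact permutation p = 0.029). In the library M43_4, Foxp3 exceeded Maf (80.5 and 77.3 FPKM), and it came next after Maf in the other iTreg libraries. Reads of the neighbour Ccdc22, which shares exons with Foxp3, also rose in iTreg cells, from 11.5 to 14.1 FPKM in Th0 libraries to 19.0 to 21.2 FPKM (log2 fold change 0.61 ± 0.09, adjusted p = 0.0029). So did those of Ppp1r3f, from 0.705 to 1.57 FPKM to 2.83 to 3.54 FPKM (0.96 ± 0.14, adjusted p = 0.0021), and the part of shared exons in these values was not tested.

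In Th17 cells, Foxp3 varied 85.1-fold between libraries. It had 0.499 FPKM (16 fragments, exact Poisson 95% interval of 0.285 to 0.811 FPKM) in M22_5 and 0.502 FPKM (19 fragments, 0.302 to 0.784) in M29_5, below every Th0 library. It had 4.50 FPKM (155 fragments, 3.82 to 5.27) in M42_5, within the Th0 range, and 42.5 FPKM (1503 fragments, 40.4 to 44.7) in M43_5, above every Th0 library and below every iTreg library. These intervals cover counting error only. The spread between Th17 libraries was thus far larger than counting error, and the comparison with Th0 cells found no difference beyond it. The log2 fold change was -0.17 ± 0.99 (SE, 95% interval of -2.43 to 2.08, adjusted p = 0.93, exact permutation p = 0.94), while the mean FPKM was 2.45 times that of Th0 cells, a value set by M43_5. Without M43_5 it was -1.23 (adjusted p = 0.18), and it turned positive, to at most 0.39, when M22_5, M29_5, M22_1, or M29_1 was left out. Ccdc22 had 14.4 FPKM in M43_5, the lowest of the Th17 libraries (14.4 to 19.1 FPKM), and Ppp1r3f had 2.42 FPKM in it, the highest (1.01 to 2.35 FPKM in the others). The log2 fold change of Ccdc22 in Th17 cells was 0.32 ± 0.12 (limma, adjusted p = 0.092). It passed with the replicate block (0.32 ± 0.08, adjusted p = 0.025).

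**Figure D2:**
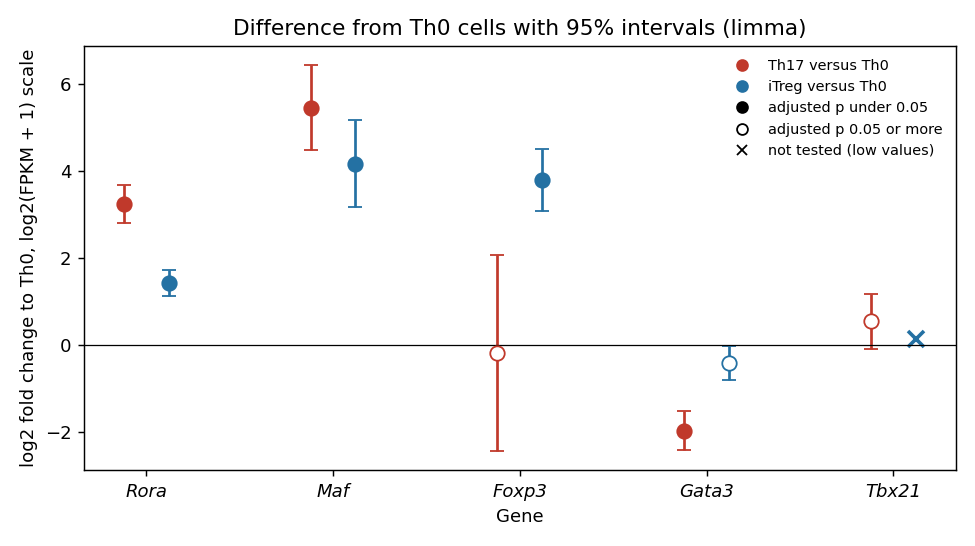
Log2 fold change of each member to Th0 cells, on the log2(FPKM + 1) scale, with 95% intervals of limma (4 libraries per group, no replicate block). Filled points passed the FDR of 0.05, open points did not, and the cross is a value without a test. The interval of Foxp3 in Th17 cells runs from -2.43 to 2.08.

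Gata3, the Th2 factor, had the highest FPKM of the members in 3 of 4 Th0 libraries. It had 15.9 FPKM in M22_1, 9.07 in M29_1, 13.0 in M42_1, and 11.0 in M43_1. In Th17 cells it had 2.63 FPKM in M22_5, 2.49 in M29_5, 1.45 in M42_5, and 3.04 in M43_5, all below every Th0 library. The Th0 mean was 5.09 times the Th17 mean, and the log2 fold change was -1.96 ± 0.20 (SE, adjusted p = 0.00025, exact permutation p = 0.029). The iTreg libraries held 10.4, 8.97, 7.35, and 8.27 FPKM in the order M22_4, M29_4, M42_4, and M43_4, which overlaps the Th0 range. Their difference from Th0 libraries did not pass the test (log2 fold change -0.41 ± 0.17, 95% interval of -0.80 to -0.02, unadjusted p = 0.041, adjusted p = 0.14, exact permutation p = 0.057). In each of the 4 pairs of libraries with the same heading beginning, Gata3 was lower in the iTreg library, by 0.73 at most on the log2 scale and in the M29 pair by almost nothing (9.07 against 8.97 FPKM). With these pairs as a block the difference passed (-0.41 ± 0.12, adjusted p = 0.034).

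Tbx21, the T-bet gene, had the lowest FPKM of the members in every Th0 and iTreg library, and rested on 8 to 58 fragments per library. It had 0.732, 0.449, 1.06, and 0.923 FPKM in the Th0 libraries M22_1, M29_1, M42_1, and M43_1, and 0.933, 1.78, 0.782, and 0.525 FPKM in the iTreg libraries M22_4, M29_4, M42_4, and M43_4. These groups overlap, and since too few libraries exceeded 1 FPKM, the difference of 0.15 on the log2(FPKM + 1) scale was not tested in the fit across genes (exact permutation p = 0.57). Th17 libraries had 0.384 FPKM in M22_5, 2.03 in M29_5, 2.06 in M42_5, and 2.52 in M43_5, of which the last 3 lie above every Th0 library. The log2 fold change in Th17 cells was 0.55 ± 0.28 (SE, 95% interval of -0.09 to 1.18, adjusted p = 0.22, exact permutation p = 0.14). It was 0.85 ± 0.15 (adjusted p = 0.0082) without M22_5, so the call turned on that library.

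The order of the members by FPKM, which depends on gene lengths that are not stated, differed between the groups. Gata3 led in the Th0 libraries M22_1, M42_1, and M43_1, and Maf in M29_1. In Th17 libraries Maf was 7.39 to 13.4 times as high as Rora, and Rora came next in all but M43_5, where Foxp3 did. In iTreg libraries Maf and Foxp3 lay close together, with Maf at 0.960 to 1.76 times Foxp3, and Gata3 (7.35 to 10.4 FPKM) lay above Rora (4.57 to 6.73 FPKM) in all 4. The summed FPKM of the 5 members was 18.5 to 31.0 in Th0 libraries, 260 to 294 in Th17 libraries, and 166 to 208 in iTreg libraries. Th17 and iTreg values were scaled in separate tables and were not tested against each other.

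Rora and Foxp3 were set against each other in each library. The ratio of Rora to Foxp3 was 61.2 in M22_5, 44.3 in M29_5, and 5.86 in M42_5, but 0.374 in M43_5. It was 0.0686 to 0.0996 in iTreg libraries and 0.199 to 0.642 in Th0 libraries. M43_5 thus differed from the other Th17 libraries in both genes, with the highest Foxp3 and the lowest Rora, and yet its Rora exceeded that of every iTreg library.

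**Figure D3:**
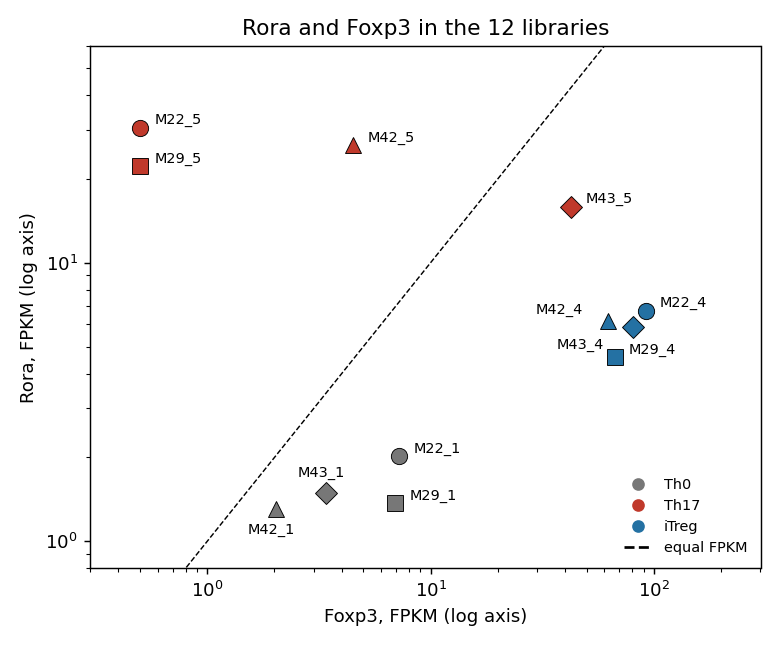
Rora against Foxp3 in the 12 libraries, both in FPKM on log axes, coloured by group. The dashed line marks equal FPKM. The Th17 library M43_5 lies on the side of higher Foxp3 (42.5 FPKM) with the Th0 and iTreg libraries, and the other Th17 libraries lie on the side of higher Rora.

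Deviations from the group means of log2(FPKM + 1) describe how the members varied together. Over the 8 libraries of the Th17 table, Foxp3 and Rora had Pearson's r = -0.63 and Spearman's rho = -0.36, and r was 0.28 over the 7 libraries without M43_5, so the negative value rested on that library. In the iTreg table the values were 0.51 and 0.52. For Foxp3 and Maf, r was 0.05 in the Th17 table (0.28 without M43_5) and 0.44 in the iTreg table (rho -0.14 and 0.31). For Foxp3 and Gata3, it was 0.14 (-0.51 without M43_5) and 0.10 (rho 0.19 and 0.21). For Foxp3 and Tbx21, it was 0.47 (0.17 without M43_5) and -0.51 (rho 0.33 and -0.50). No p is given, since the Th0 libraries are in both tables and libraries with the same heading beginning are not independent.

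The genes most like each member over the 12 libraries were ranked by Pearson's r of log2(FPKM + 1) less the Th0 mean, among 10078 other genes tested in both tables (10079 for Tbx21). Because group differences enter this measure, it ranks similarity of pattern only. Gja3, Olfm2, and Tmcc3 were most like Rora (r = 0.99 for all 3). Olfm2 had means of 0.114, 31.2, and 3.52 FPKM in Th0, Th17, and iTreg cells, and Gja3, a gap junction gene listed at 0 in all Th0 libraries, had 6.58 FPKM in Th17 and 1.25 in iTreg cells. Foxn3, Ssbp4, and Mef2a were most like Maf (r = 0.98 for all 3), with Foxn3, itself a forkhead gene, at 10.4, 19.9, and 16.9 FPKM in Th0, Th17, and iTreg cells. Fnbp1 (r = 0.98), Cd274, and Glipr1 (r = 0.97 for both) were most like Gata3. Cd274, which encodes the checkpoint ligand PD-L1, had 50.6, 5.17, and 32.7 FPKM in Th0, Th17, and iTreg cells. The genes nearest to Tbx21 were less alike (Zbtb41 with r = 0.85, Pik3c2a with 0.83, and Jmjd4 with 0.80), and none of them passed the test in either comparison without the replicate block. With it, Pik3c2a passed in both (adjusted p = 0.012 in Th17 and 0.0095 in iTreg cells).

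Socs2, Lrrc32, and Mgat4a were most like Foxp3 (r = 0.96 for all 3). Socs2, a suppressor of cytokine signalling, had 2.41 FPKM in M22_5, 0.731 in M29_5, 12.9 in M42_5, and 54.7 in M43_5, compared to 8.59 to 24.4 in Th0 libraries and 119 to 199 in iTreg libraries. Lrrc32, which encodes the TGFβ docking receptor GARP of regulatory T cells, had 0.0642, 0.0272, 0.658, and 5.47 FPKM in the same Th17 libraries, compared to 0.991 to 5.98 in Th0 libraries and 12.7 to 28.4 in iTreg libraries. Mgat4a, a glycosyltransferase gene, had 1.67, 2.05, 1.97, and 3.68 FPKM in them. In all 3, M43_5 was the highest Th17 library, which follows from their choice by likeness to Foxp3 over these libraries. Socs2 (log2 fold change 3.31 ± 0.29, adjusted p = 0.00016), Lrrc32 (2.44 ± 0.38, adjusted p = 0.0031), and Mgat4a (0.67 ± 0.11, adjusted p = 0.0038) rose in iTreg cells. These rises follow from the same choice, since Foxp3 rose in iTreg cells, and are no independent observation.

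Counts in this and the following lists stand beside the shares of all genes tested that were DE, 19.3% in Th17 and 16.6% in iTreg cells. With the replicate block these shares were 37.8% and 40.9%, so calls were gained across all genes. Of 20 genes of the Treg programme, 8 rose and none fell in iTreg cells compared to Th0 cells, and 9 did not pass the test, 1 was too low to be tested, and 2 were not listed. Those that rose include Socs2, Nt5e (CD73; log2 fold change 3.28 ± 0.21), Itgae (CD103; 2.57 ± 0.46), and Lrrc32, besides Ikzf4 (Eos; 2.42 ± 0.29), Il2ra (the IL2 receptor alpha chain; 1.76 ± 0.27), Capg, and Tgfb1. Itgae was at 1.00 FPKM or less in every Th0 library, so it was tested through its iTreg and Th17 values. Ctla4 (0.46 ± 0.21) and Ikzf2 (Helios; -0.03 ± 0.38) did not pass. Ctla4 passed with the replicate block (adjusted p = 0.017), under which Tnfrsf9 and Icos fell. The median was 0.45, beside 0.01 over all genes tested. In Th17 cells 6 rose (Il10, Itgae, Nt5e, Ctla4, Capg, and Il2ra), 5 fell (Tnfrsf9, Nrp1, Tnfrsf18, Gpr83, and Tnfrsf4), 5 did not pass, 2 were not tested, and 2 were not listed, with a median of 0.07, beside 0.00 over all genes. The receptors Tnfrsf9 (4-1BB) and Tnfrsf18 (GITR) had log2 fold changes of -2.60 ± 0.27 and -2.00 ± 0.30. Without M43_5, 5 rose and 6 fell, since Il2ra no longer passed and Lrrc32 did, and the call of Il2ra was lost under 4 of 15 settings. Ikzf4 also passed in Th17 cells under the replicate block (limma, adjusted p = 0.041). It was highest in M43_5 (17.3 FPKM) and did not rise in the M22 pair (6.97 FPKM in M22_1 and 6.91 in M22_5). The block fit was not run without M43_5.

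M43_5 was the highest Th17 library for 9 of the 16 Treg programme genes tested in the Th17 table (56.2%), where it was the highest for 21.9% of all genes tested. M43_5 was also the highest for 5 of 10 genes of the Th1 programme. The 9 Treg programme genes include Socs2 and Lrrc32, which were ranked most like Foxp3 over these libraries. The list was also chosen with earlier results of these data known, so its share is no independent observation. Among the Treg programme genes, Ikzf4 had 17.3 FPKM in M43_5 and 5.42 to 8.35 FPKM in the other Th17 libraries, and Gpr83 had 8.48 and 1.47 to 2.54 FPKM. For Il2ra and Nrp1, libraries whose headings begin with M43 were the highest in all 3 groups, and Gpr83 was also highest in the iTreg library M43_4 (24.2 FPKM). Ikzf4 (20.2 FPKM) and Socs2 (119 FPKM) were lowest in M43_4 among iTreg libraries. Ctla4 (104 FPKM, others 140 to 148) and Il10 (16.1 FPKM, others 26.1 to 36.3) were lowest in M43_5. Of 792 genes that rose in iTreg cells and were tested in the Th17 table, members left out, M43_5 was the highest Th17 library for 36.2%. Of 837 such genes that fell in iTreg cells, M43_5 was the lowest Th17 library for 21.7%, beside 23.8% of all genes tested. Cytokine genes of the Th17 programme were well above Th0 cells in it too, with 366 FPKM of Il17f, 21.2 of Il17a, and 70.4 of Il21. It was the lowest Th17 library for 5 of 14 genes of that programme (35.7%) and for 23.8% of all genes tested. These shares describe 4 libraries and were not tested. The recovered depth of M43_5 lay within the range of the other libraries.

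**Figure D4:**
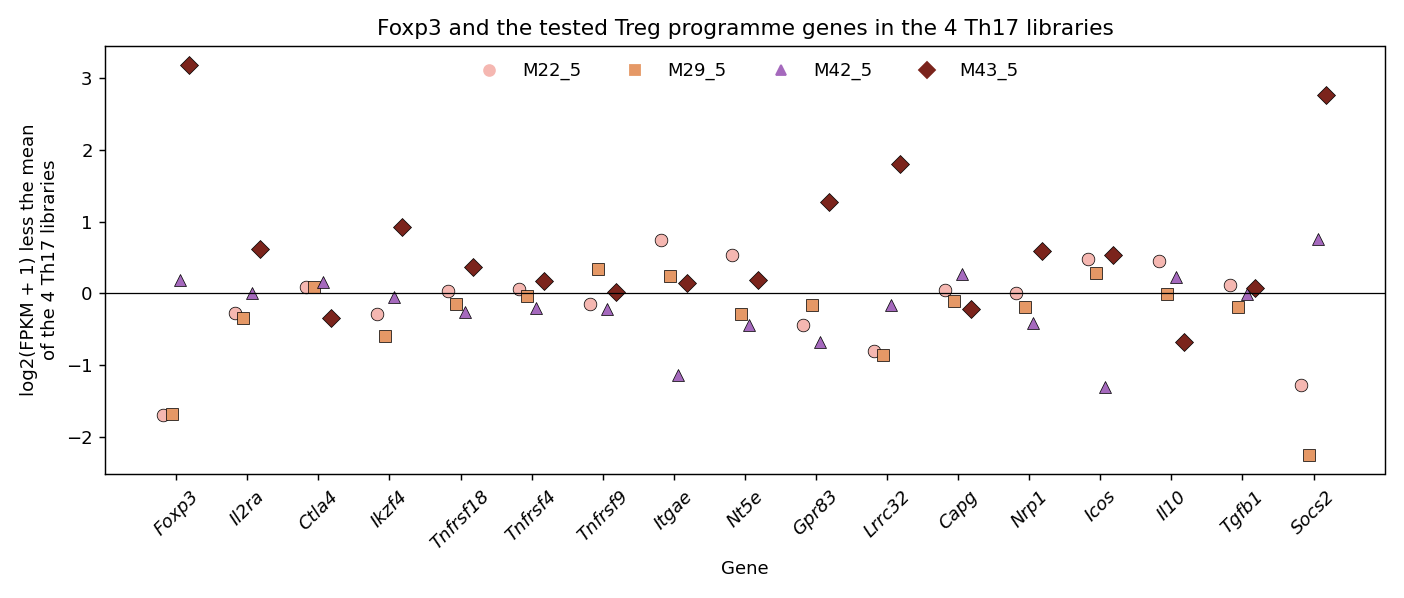
Foxp3 and the 16 tested Treg programme genes in the 4 Th17 libraries, as log2(FPKM + 1) less the mean of the 4 libraries. M43_5 is the highest library for Foxp3 and for 9 of the 16 genes, and the lowest for Ctla4, Capg, and Il10. The 9 include Socs2 and Lrrc32, which were ranked most like Foxp3 over these same libraries.

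Of 15 genes of the Th17 programme, 10 rose in Th17 cells, 1 fell (Nfkbiz), 3 did not pass, and 1 was not listed, with a median log2 fold change of 1.95. Il17f (8.64 ± 0.28), Il21 (6.07 ± 0.13), Ahr (the aryl hydrocarbon receptor; 4.86 ± 0.19), and Il17a (4.50 ± 0.51) had the highest values. Il17a, Il17f, Il21, Il23r, and Il1r1 were at 0.205 FPKM or less in every Th0 library, and were tested only through their Th17 values. In iTreg cells 5 rose and 1 fell (Hif1a, -0.55 ± 0.14, a call lost under 7 of 15 settings), 4 did not pass, and 5 were not listed, with a median of 0.85. The 5 not listed (Il17a, Il21, Il22, Il23r, and Il1r1) do not enter this median, which covers the 10 genes tested in iTreg cells. Il17f (5.53 ± 0.35), Ccr6 (a chemokine receptor; 3.59 ± 0.28), Ccl20 (its ligand; 2.92 ± 0.58), and Ahr (2.18 ± 0.19) rose most. Il17f was tested in iTreg cells only through its iTreg values. Ccr6 and Irf4 also rose in Th17 cells with the replicate block, and in iTreg cells Ikzf3 rose and Nfkbiz fell. Mean Il17f was 57.6 FPKM in iTreg and 482 FPKM in Th17 cells, compared to 0.124 FPKM in Th0 cells.

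The Th1 programme, which T-bet is known to drive, moved in both directions. Of its 14 genes, 2 rose in Th17 cells (Cxcr3 and Runx3), 4 fell (Fasl, Gzmb, Stat4, and Ccl5), 4 did not pass, 1 was not tested, and 3 were not listed. In iTreg cells 2 rose (Il18r1 and Il18rap), the same 4 fell, 5 did not pass, 1 was not tested, and 2 were not listed. The medians were -0.15 and -0.10. Without M43_5, Il18rap was tested in Th17 cells and fell too. Stat4, which transmits the IL12 signal, had log2 fold changes of -2.29 ± 0.16 in Th17 and -2.01 ± 0.17 in iTreg cells, and Gzmb (granzyme B) -3.05 ± 0.40 and -2.66 ± 0.42. Gzmb was at 0.631 FPKM or less in every Th17 and iTreg library, and was tested only through its Th0 values. Cxcr3, a chemokine receptor gene that T-bet activates, had 1.64 ± 0.44 in Th17 cells (adjusted p = 0.031). It did not pass under 5 of 15 alternative settings, and in iTreg cells Il18r1 did not under 6 and Fasl did not under 5. With the replicate block, Il12rb1, Il18r1, and Il27ra also rose in Th17 cells, and Cxcr3 in iTreg cells (1.34 ± 0.15, adjusted p = 0.00082).

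Of 14 genes of the Th2 programme, on which GATA3 acts, 6 were not listed, among them the cytokine genes Il4, Il5, and Il13. In Th17 cells 3 rose (Il4ra, Ccr8, and Nfil3), 1 fell (Gfi1), and 4 did not pass, and in iTreg cells 2 rose (Ccr8 and Nfil3), 2 fell (Gfi1 and Zfpm1), and 4 did not pass, with medians of -0.09 and 0.42. Ccr8, a chemokine receptor of Th2 and regulatory T cells, had a mean of 17.1 FPKM in Th0, 47.7 in Th17, and 311 in iTreg cells (log2 fold changes 1.45 ± 0.39 and 4.18 ± 0.36), and the call in Th17 cells was lost under 7 of 15 settings. Leaving out M43_5 was among these settings. Gfi1, a repressor that promotes Th2 growth, had log2 fold changes of -1.30 ± 0.18 and -2.13 ± 0.27. With the replicate block, Stat6, Ccr4, and Zfpm1 also fell in Th17 cells, and Il4ra and Ccr4 rose in iTreg cells.

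**Figure D5:**
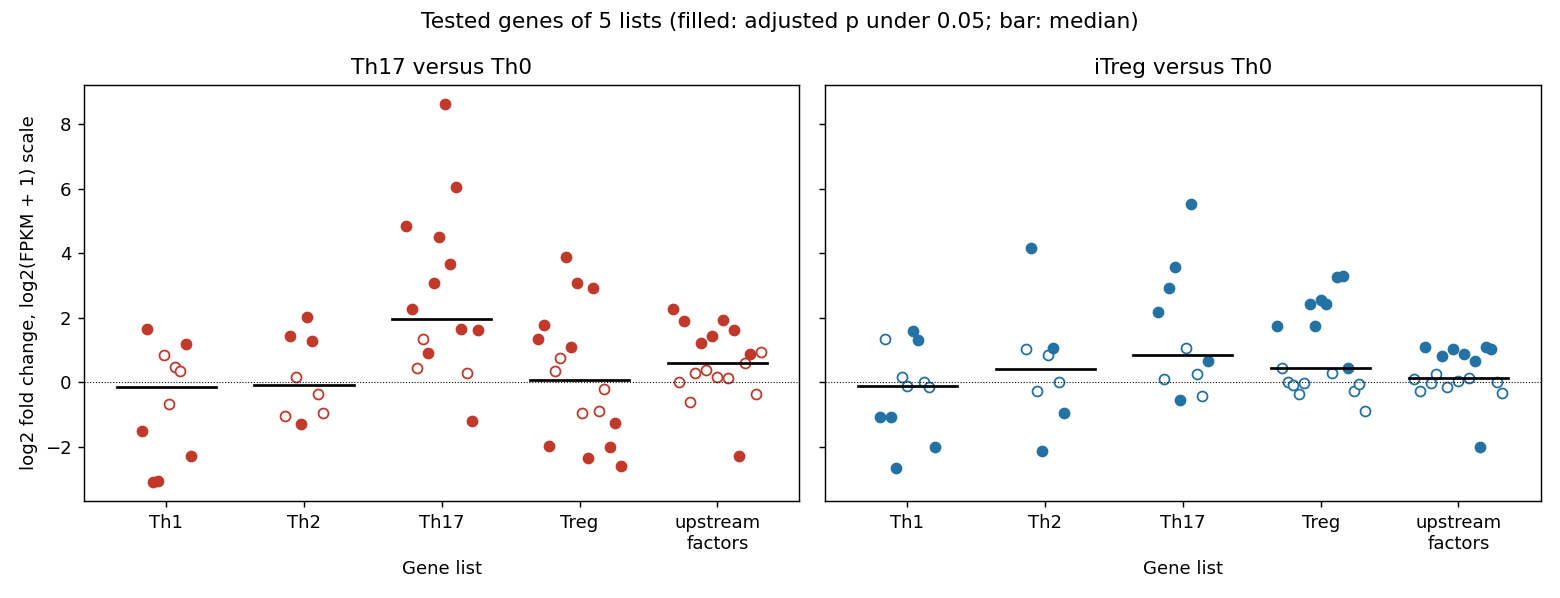
Log2 fold change to Th0 cells, on the log2(FPKM + 1) scale, of the tested genes of 5 lists (the Th1, Th2, Th17, and Treg programmes and upstream factors), for Th17 cells (left) and iTreg cells (right), without the replicate block. Filled points passed the FDR of 0.05 and bars are list medians over the genes tested. The bars of the Th17 programme (1.95 in Th17 and 0.85 in iTreg cells) cover 14 and 10 of its 15 genes.

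Among 5 genes that c-Maf is known to regulate, Il21 and Il10 (3.90 ± 0.44) rose in Th17 cells, Il2 fell (-2.88 ± 0.31), and 2 were not listed. In iTreg cells Il2 fell (-3.47 ± 0.35) and the other 4 were not listed. Mean Il2 was 38.1 FPKM in Th0, 4.05 in Th17, and 2.43 in iTreg cells. Of the 8 other genes of the MAF family and its partners, Maff rose in both (1.29 ± 0.21 in Th17 and 1.83 ± 0.14 in iTreg cells), and Mafg and Mafk rose in Th17 cells, with calls that were lost under 6 and 7 of 15 settings. The call of Mafk was lost without M43_5. Bach1 and Bach2 did not pass in either, and 3 were not listed. Under the replicate block, both rose in Th17 cells (adjusted p = 0.043 and 0.0070), and Mafg and Mafk in iTreg cells (0.0010 and 0.0015). The median was 0.54 in Th17 and 0.47 in iTreg cells.

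The factors that signal to or act with the members were described likewise. Of 17 upstream factors, 7 rose, 1 fell, and 9 did not pass in Th17 cells, and the counts were equal in iTreg cells (medians 0.61 and 0.12). Of all genes tested, 19.3% and 16.6% were DE, and 37.8% and 40.9% with the replicate block. Stat3, Stat5b, Smad3, Foxo1, Runx1, and Nfatc2 rose in both, and Stat4 fell in both. Foxo3 also fell in Th17 cells without M43_5. Batf, a partner of IRF4 in Th17 cells, rose in Th17 cells (2.26 ± 0.25) and had 0.09 ± 0.15 in iTreg cells, and Stat5a, which transmits the IL2 signal, passed in iTreg cells (1.10 ± 0.19, and 0.61 ± 0.22 with adjusted p = 0.096 in Th17 cells). Whether these effects differ between Th17 and iTreg cells was not tested. Stat3, which transmits the IL6 signal, had a mean of 52.2 FPKM in Th0, 163 in Th17, and 81.5 in iTreg cells, and Smad3, a TGFβ transducer, 6.81, 28.3, and 13.3 FPKM. Smad2 and Smad4 did not pass in either comparison, with or without the replicate block. With it, Stat5a, Tcf7, Notch1, and Irf4 also rose and Stat6 and Foxo3 fell in Th17 cells, and Tcf7 and Cbfb fell in iTreg cells.

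The families of the members were counted in the same way. Of 13 other forkhead genes, 3 rose (Foxo1, Foxn3, and Foxj3), 2 fell (Foxp4 and Foxn2), 7 did not pass, and 1 was not listed in each comparison, with medians of -0.02 and -0.01. The call of Foxj3 in iTreg cells was lost under 6 of 15 settings. Foxo3 fell in Th17 cells when M43_5 was left out. Foxo1 had log2 fold changes of 1.90 ± 0.09 and 1.11 ± 0.09, and Foxp1, which belongs to the same subfamily as Foxp3, had -0.05 ± 0.09 and 0.00 ± 0.09. With the replicate block, Foxo4 also rose and Foxm1 fell in both, Foxo3 fell in Th17 cells, and Foxj2 fell in iTreg cells. Of 9 other GATA and T-box genes, 6 were not listed, and Gata1 rose in iTreg cells (0.98 ± 0.19, adjusted p = 0.0093), while Tbx6 and Mga did not pass, save for Tbx6 in Th17 cells with the replicate block (0.69 ± 0.19, adjusted p = 0.031). Of 15 other nuclear receptor genes, 4 rose in Th17 cells (Nr1d1, Rara, Thra, and Nr1d2), 3 fell (Nr4a3, Rxra, and Nr4a1), 7 did not pass, and 1 was not tested, and 5 rose in iTreg cells (Nr1d1, Rara, Vdr, Nr1d2, and Ppard) while 10 did not pass (medians 0.10 and 0.20). The call of Nr4a1 was lost under 5 of 15 settings. Nr4a2 also fell in both and Rxrb rose in Th17 cells with the replicate block. Nr1d1, which encodes REV-ERBα, a repressor that competes with ROR proteins for their binding sites, had means of 0.530 FPKM in Th0, 10.0 in Th17, and 6.41 in iTreg cells (log2 fold changes 2.71 ± 0.31 and 2.27 ± 0.12). It was at 0.586 FPKM or less in every Th0 library, and was tested only through its Th17 and iTreg values. Vdr, at 0.812 FPKM or less in the Th0 libraries of the iTreg table, was tested only through its iTreg values.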

How the data were processed

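RNA from 4 Th0, 4 Th17, and 4 iTreg samples had been sequenced as paired-end reads of 100 nt. Per the study's methods, the authors aligned reads with TopHat 2.0.14 to mm10, counted them per gene with HTSeq (exons, union mode, without strand), removed genes that did not exceed 1 CPM in at least 4 samples, and tested DE with edgeR in a pair-wise design. No source used here states the gene annotation or how FPKM was calculated. The deposited tables, 1 for Th17 and 1 for iTreg cells, each with the Th0 libraries, hold FPKM and 5 columns of the authors' own comparison (fold change, mean level, test statistic, p-value, and FDR), which were not used. No column of other samples was found.

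FPKM as deposited were transformed to log2(FPKM + 1), and genes that exceeded 1 FPKM in 4 or more of the 8 libraries were tested per table with limma 3.58.1 in R 4.3.3, with Benjamini-Hochberg adjustment over all genes tested (FDR 0.05). Members were also tested by exact two-sided permutation (scipy 1.17.1). The labels describe 4 replicates per group, and whether they came from separate animals is not stated, so p-values measure the spread between these samples. Whole fragments were recovered from the steps of low FPKM with a tolerance of 0.01 fragments. The step of library M22_4 was the least certain, so its depth, the highest, is approximate. The pairing comes from the heading beginnings. Over 4 pairs in each table, deviations from the group means correlated at 0.45 to 0.78 within a pair, and each library correlated best with its own beginning. A fit with that beginning as a replicate block was therefore added. Both fits were also run on simulated data, drawn as independent normal values for each gene. That setting is simpler than these data, so no conclusion is drawn from it.

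The members and gene lists were chosen with earlier results of these data known, and some genes are left out of the lists and not reported here. Named are the members, the 3 genes most like each, list genes that passed (up to 4 per direction by size), and list genes that a sentence needed. Alternatives changed the pseudocount, filter, scaling, variance model, FDR, and libraries, and voom on recovered fragments and the replicate block were chosen after seeing the data.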

Additional observations from a re-analysis of the deposited data

Results flagged for a closer look

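Of 54 combinations of gene, group, and scale examined in groups of 4 libraries, 3 held a library whose gap to its neighbour exceeded the critical share of the range in Dixon's test (level of 95%), a limit that chance passes in about 1 in 20 groups. The 3 are about as many as chance alone would flag. Foxp3 in the Th17 library M43_5 was the highest of 4 (42.5 FPKM, gap 0.905 of the range) on the FPKM scale, and did not pass the limit on the log2(FPKM + 1) scale (0.614). Lrrc32, examined because it was picked for its likeness to Foxp3 over these libraries, was the highest in M43_5 on the FPKM scale too (5.47 FPKM), which is no independent observation. Tbx21 in the Th17 library M22_5 was the lowest of 4 on the log2(FPKM + 1) scale (0.47, gap 0.840), and did not pass on the FPKM scale (0.771).

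Hif1a, a factor of the Th17 programme, had log2 fold changes of 0.90 in Th17 and -0.55 in iTreg cells, with no overlap with Th0 libraries in either. Its call in iTreg cells was lost under 7 of 15 settings. Of all genes tested, 23.8% in the Th17 table and 22.8% in the iTreg table had no overlap. Tgfb1 had -0.21 in Th17 cells, which did not pass the test (adjusted p = 0.21 by limma), and 0.45 in iTreg cells, again with no overlap. These opposite directions were not tested against each other, and both comparisons share the Th0 libraries.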

How the results depend on the processing

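Of 135 alternative values for the members, 129 kept their direction and their side of the threshold, including all those of Rora and Maf in both comparisons, of Foxp3 in iTreg cells, and of Gata3 in Th17 cells. The log2 fold change of Foxp3 in Th17 cells ran from -1.23 to 0.39 when libraries were left out, and was 0.03 without M22_1, 0.39 without M22_5, 0.01 without M29_1, and 0.39 without M29_5. That of Tbx21 in Th17 cells ran from 0.40 to 0.85, with 0.85 (adjusted p = 0.0082 by limma, 0.0082 to 0.40 over the alternatives) without M22_5, and the cause was not tested. At an FDR of 0.01, 995 genes were DE in Th17 cells (574 higher, 421 lower) and 778 in iTreg cells (449 higher, 329 lower). With a library left out, 1384 to 2271 genes were DE in Th17 cells and 1155 to 1569 in iTreg cells, and 525 to 761 were lower in iTreg cells, with 525 without M22_1 and 538 without M22_4. With voom on the recovered fragments, 1962 and 1685 genes were DE. Of 94 calls on list genes, 76 held under every alternative, and of their 1410 alternative values 67 lost the call and 0 reversed. With the heading beginning as a replicate block, 3882 genes were DE in Th17 cells (1970 higher, 1912 lower) and 4170 in iTreg cells (2131 higher, 2039 lower), among them all 1983 and 1691 called without it. The block turned the call of Gata3 in iTreg cells (-0.41, adjusted p = 0.034 by limma, 0.034 to 0.30 over the alternatives) and of no other member, and no call on a list gene was lost under it.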
